A study of Mus musculus with 2 samples.

Results

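The circadian clock genes Clock, Arntl, Npas2, Per1, Per2, Per3, Cry1, Cry2, Nr1d1 and Nr1d2 were taken by symbol from the feature list, and each symbol had 1 row, which gave 10 of 32285 genes. They were described across NeuN-sorted hypothalamic nuclei profiled by single-nucleus RNA sequencing (snRNA-seq) on the 10x Chromium v3 platform. The nuclei came from pooled wild-type male C57BL/6J mice aged 10 to 12 weeks, with no treatment named in the labels. Nuclei carried either of 2 antibody hashtags, which the feature list calls ARC (arcuate nucleus of the hypothalamus) and PVH, a name that the labels do not explain. The sources used here do not give the hour at which the mice were killed, so the values are those of an unknown phase and no rhythm can be read from them.

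After filtering, 3767 nuclei had the ARC hashtag and 3074 the PVH hashtag, with medians of 4827 and 5039 UMIs (unique molecular identifiers, each counting 1 captured RNA molecule) per nucleus. Clustering without the clock genes gave 13 neuron clusters on the ARC side, which held 3737 neurons, and 15 on the PVH side. Clusters were numbered by size, and 7 and 6 of them were named from marker genes. On the ARC side these were AGRP-like, somatostatin-like, POMC-like, KNDy-like, GHRH-like, VMH-like and dopaminergic-like clusters, and on the PVH side 5 SIM1-like clusters and 1 thalamic or zona incerta-like cluster. ARC cluster 2 and PVH cluster 1 stayed unnamed and carried markers of oligodendrocytes, with Sox10 among their leading genes. ARC cluster 2 also passed both the SIM1 and the thalamic or zona incerta list. PVH cluster 7 passed the dopaminergic list with Slc6a3, Slc18a2 and Lhx1, but its leading genes held more suprachiasmatic markers, and it stayed unnamed. No cluster passed the marker list of the suprachiasmatic nucleus, the master clock of the brain, which required its peptide gene Vip. Vip reached at most 2.13 CPM (a gene's share of the summed UMIs, times 1000000) in any neuron cluster. Other genes of that list were high in some clusters. PVH cluster 7, led by Lhx1 and Six6 among others, had 89.9 CPM of Lhx1, 23.0 CPM of Six6 and 6.58 CPM of Prok2. Over all PVH-hashtag neurons these were at 11.5, 5.08 and 1.79 CPM. Its level of Vip was 0 CPM, so it missed the list on that requirement. ARC clusters 12 and 13 had 110 and 77.4 CPM of Lhx1, and 25.6 and 28.7 CPM of Six6. PVH cluster 9 had 60.1 CPM of Lhx1. Each hashtag was 1 pooled sample without replicates. Differences therefore carry no p-value, and the intervals given are exact 95% intervals that cover counting error only.

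The mammalian clock is a transcriptional feedback loop that runs in most cells of the body. CLOCK, or its relative NPAS2, pairs with BMAL1, the product of Arntl, and activates genes through E-box elements. PER and CRY proteins accumulate and repress that activation, while the nuclear receptors REV-ERB alpha and beta (Nr1d1 and Nr1d2) repress Arntl through ROR elements, which closes another loop. In the mediobasal hypothalamus the loop has been tied to the daily timing of feeding.

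All 10 genes were detected in neurons of both hashtags, and their summed level was 375 CPM on the ARC side and 369 CPM on the PVH side. Clock was the highest of them, at 152 CPM (147 to 158) from 2952 UMIs on the ARC side and 146 CPM (141 to 152) from 2447 UMIs on the PVH side. Per3 was the lowest, at 2.63 CPM (1.96 to 3.46) and 2.57 CPM (1.86 to 3.46), from 51 and 43 UMIs. The counts of a long gene can include more intronic RNA in nuclei, and across 18072 genes CPM and gene length had a Spearman rho of 0.41. Per kilobase of gene model the order was different. Over all hashtagged neurons Clock (1.57 CPM per kb), Cry2 (1.51) and Nr1d2 (1.19) were the highest, and Per1 (0.591), Arntl (0.537) and Nr1d1 (0.535) followed at nearly the same level per length. Per2 (0.322) and Cry1 (0.320) were alike on that scale, and Npas2 (0.186) and Per3 (0.0634) were the lowest.

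**Figure D1:**
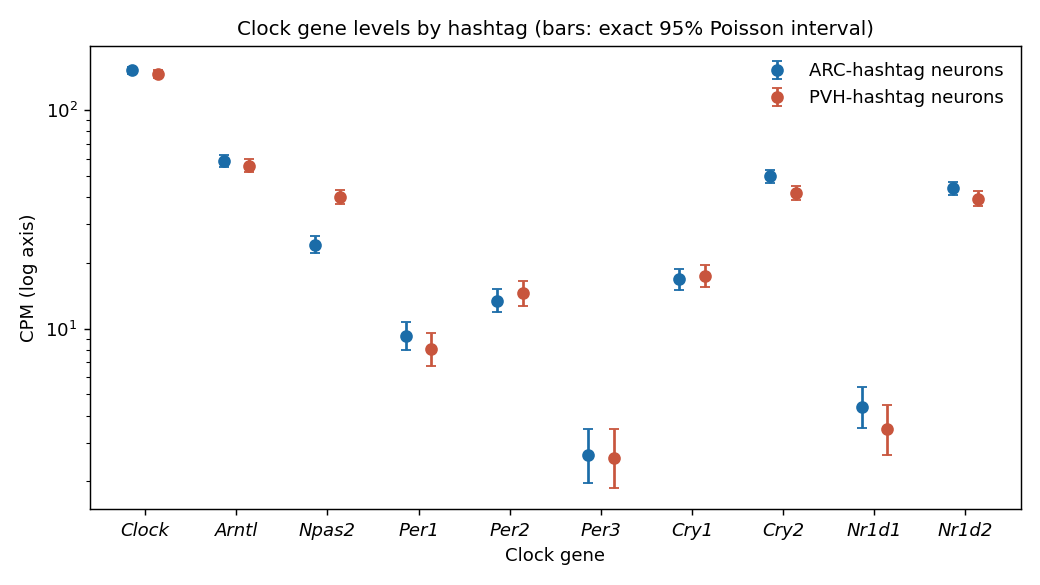
Level of each clock gene in ARC-hashtag neurons (blue) and PVH-hashtag neurons (red), in CPM on a log axis; points are pooled levels and bars are exact 95% Poisson intervals. Npas2 is at 24.2 CPM on the ARC side and at 40.0 CPM on the PVH side, and the other genes lie close to each other on both sides.

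The proximal promoters were searched for motifs of the loop. RefSeq promoter windows (GRCm38.p6, from 250 bases before to 50 bases after the start) were matched for 9 of the 10 genes, all but Per2, in 13 windows. They were searched on both strands for the E-box CACGTG, the variant E-box CACGTT, the D-box TTATGTAA bound by DBP, TEF and HLF, and the ROR element TAGGTCA. These motifs do not overlap each other. The E-box occurred in the windows of 2 members, Per1 and Cry1, and in 7.15% of all 32851 windows. The variant E-box occurred in 3 members, Cry1, Cry2 and Nr1d1, against 4.68% of all windows. The D-box was found in Per3 alone, where it occurred at 2 positions, against 0.938% of all windows, and the ROR element in Arntl alone, against 2.61%. The windows of Clock, Npas2 and Nr1d2 held none of the 4 motifs. The member counts are of genes, some with several windows, while the shares are of single windows, so they are not on the same scale. The matched stretches of Per1, Cry1, Per3 and Arntl are shown as examples. Those of Cry2 and Nr1d1, which hold only the variant E-box, are not shown. The variant E-box of Cry1 reads AACGTG on the strand shown, which is CACGTT on the other. They read 5′ to 3′ along the gene, with matched motifs in capitals, and lie in the GENCODE Per1 gene model (Per1), in the Camta1 gene model upstream of Per3 (Per3), upstream of the gene model (Cry1) and in the first exon (Arntl).
Per1, chr11:69098725-69098844, plus strand: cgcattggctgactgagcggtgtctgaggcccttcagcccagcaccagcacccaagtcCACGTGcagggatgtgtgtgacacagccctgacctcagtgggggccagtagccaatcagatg
Cry1, chr10:85185067-85185186, minus strand: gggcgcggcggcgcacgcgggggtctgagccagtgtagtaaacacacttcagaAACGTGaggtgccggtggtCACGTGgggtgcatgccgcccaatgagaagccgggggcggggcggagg
Per3, chr4:151044784-151044903, minus strand: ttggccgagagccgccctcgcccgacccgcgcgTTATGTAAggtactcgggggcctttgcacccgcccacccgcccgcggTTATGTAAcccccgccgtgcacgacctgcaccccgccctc
Arntl, chr7:113207529-113207558, plus strand: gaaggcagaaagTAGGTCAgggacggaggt
A match describes the letters of a window and does not show that a factor binds there.

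Levels were then compared between the hashtags, with a gene called past the fold when its CPM differed by 1.5-fold or more and each group would hold at least 20 UMIs at equal levels. Of the 10 clock genes, 1 was past the fold, against 11.3% of the 16158 genes measured. This gene was Npas2 (chr1:39193731-39363236), which encodes the partner of BMAL1 that can stand in for CLOCK in the forebrain. It was at 24.2 CPM (22.1 to 26.5) in ARC-hashtag neurons and at 40.0 CPM (37.0 to 43.1) in PVH-hashtag neurons, a ratio of 1.65 (1.46 to 1.86). It lay between 1.54 and 1.80 when each of the 28 neuron clusters was left out in turn. Within transmitter classes the direction was the same. In GABAergic clusters Npas2 was at 20.7 CPM on the ARC side and 35.7 CPM on the PVH side, a ratio of 1.72 (1.41 to 2.10), where 13.7% of all measured genes were past the fold. Without PVH cluster 5 this ratio was 1.33 (1.04 to 1.68). In glutamatergic clusters the levels were 29.4 and 41.8 CPM, a ratio of 1.42 (1.21 to 1.67), which is below 1.5-fold, and 9.11% of all genes were past it. This ratio also depended on single clusters, being larger without VMH-like ARC cluster 10 and smaller without PVH cluster 3. They held 64 of the 229 and 101 of the 490 Npas2 UMIs of that class on their sides. Over 18 other settings the ratio of all neurons lay between 1.42 and 2.17 and was past the fold in 17.

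The other 9 genes had ratios of PVH to ARC between 0.791 and 1.08. Clock had a ratio of 0.961 (0.911 to 1.01). Arntl was at 58.5 CPM on the ARC side and 55.8 CPM on the PVH side, a ratio of 0.953 (0.873 to 1.04), but its classes went opposite ways. In GABAergic clusters Arntl was higher on the PVH side, with a ratio of 1.204 (1.05 to 1.38), and in glutamatergic clusters it was lower, with a ratio of 0.792 (0.703 to 0.892). The cryptochrome gene Cry2 was slightly lower on the PVH side, at 41.7 CPM (38.7 to 44.9) against 49.7 CPM (46.6 to 53.0), a ratio of 0.839 (0.760 to 0.926). Nr1d2 was at 39.3 and 44.0 CPM, a ratio of 0.895 (0.807 to 0.991). The intervals of both ratios lie below 1, and both differences are smaller than the fold used for calls. Their direction was not kept under every setting, since the ratio of Cry2 was 1.04 at a hashtag quantile of 0.99 and that of Nr1d2 was 1.12 after thinning to 1000 UMIs per nucleus. The mixture of neuron types differed between the sides, and its part in these ratios was not tested beyond the split by transmitter and the values without single clusters.

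Among the activators, Clock (chr5:76209868-76304792) varied little over neuron clusters. In ARC-hashtag clusters its level ranged from 116 CPM (95.6 to 140) in cluster 11 to 175 CPM (145 to 209) in cluster 13, with a median of 150 CPM. In PVH-hashtag clusters it ranged from 125 CPM in SIM1-like cluster 4 to 163 CPM in cluster 3. No cluster of either side was past 1.5-fold of its other neurons. Over the 28 clusters its coefficient of variation was 8.97%, of which 3.63% remained after the variance expected from counting was taken off. This net value was at the 7.08th percentile of the 2613 genes of like count. The net values of Per3 and Nr1d1, which were sparse, were 0.

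Arntl (chr7:113207465-113314126), which encodes the obligate partner BMAL1, varied more than its partner gene, with 28.5% left after counting variance. On the ARC side it was lowest in cluster 11, marked by Tbx19 and Pirt, at 33.2 CPM (22.7 to 46.8), and highest in cluster 7, marked by Smoc2 and Pdzrn3, at 80.7 CPM (65.8 to 98.0). The median cluster had 66.0 CPM. The somatostatin-like cluster 3 was also low, at 36.0 CPM (28.3 to 45.0), a ratio of 0.587 (0.459 to 0.741) to the other ARC-hashtag neurons. AGRP-like neurons had 44.7 CPM and POMC-like neurons 49.8 CPM, both below the median cluster but not past the fold.

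Among PVH-hashtag neurons, Arntl was lower in SIM1-like neurons. SIM1 is a transcription factor needed for the development of the paraventricular nucleus. The 5 SIM1-like clusters, with 912 nuclei, had 28.2 CPM in cluster 4, 37.1 in cluster 6, 40.3 in cluster 8, 63.5 in cluster 10 and 28.7 in cluster 12. Summed, they held 38.1 CPM (33.0 to 43.8) against 63.7 CPM in the other PVH-hashtag neurons, a ratio of 0.598 (0.509 to 0.701), which lay between 0.531 and 0.660 without each neuron cluster in turn. Cluster 10 stood apart from the other SIM1-like clusters, and clusters 11 and 14, which were not SIM1-like, were as low, at 30.1 and 37.6 CPM. Arntl was the 1 clock gene past the fold of the 8 measured in this comparison, in which 8.98% of all measured genes were past it. Clock was at 135 CPM (125 to 145) in the same SIM1-like neurons, a ratio of 0.892 (0.816 to 0.975). The highest level of Arntl among all clusters was 86.8 CPM (73.2 to 102) in PVH cluster 3, which was led by Lef1, Hmx3 and Hmx2.

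Npas2 had the highest net variation of the 10 genes over clusters, with 54.4% left after counting variance, at the 92.2nd percentile of the 5496 genes of like count. Before that step Per3, the sparsest gene, was at 58.1% and Npas2 at 57.3%. Npas2 was the 1 clock gene that the selection of variable genes would have taken. Its level in ARC-hashtag clusters ran from 4.30 CPM (0.887 to 12.6, from 3 UMIs) in cluster 13 to 58.4 CPM (45.0 to 74.6) in the VMH-like cluster 10, with a median of 19.0 CPM. Cluster 13 had too few expected UMIs for a call. The VMH-like neurons, which express Nr5a1 and Fezf1 and mark the neighbouring ventromedial nucleus, had 2.63-fold (1.99 to 3.44) the level of the other ARC-hashtag neurons. The interval of that cluster overlapped, by a small margin, only that of the somatostatin-like cluster 3, at 36.9 CPM (29.2 to 46.1). GHRH-like neurons had 11.1 CPM (5.73 to 19.4) and KNDy-like neurons 15.2 CPM (8.68 to 24.7), ratios of 0.444 and 0.614 to the rest of the side. Clusters 6 and 11 were also low, at 14.1 and 13.5 CPM.

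Levels of Npas2 in PVH-hashtag clusters ran from 7.52 to 61.3 CPM, and neighbours in that order had overlapping intervals. Clusters 2, 4, 6, 9 and 14, at 7.52 to 20.2 CPM, were past the fold downwards, and cluster 3 was the 1 past it upwards. Clusters 11 and 12 were at 30.1 and 38.8 CPM, and the others at 46.4 CPM or more. The SIM1-like clusters were spread over this range, since cluster 8 had 56.4 CPM, cluster 10 was close to it, and clusters 4 and 6 had 19.3 and 17.8 CPM.

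**Figure D2:**
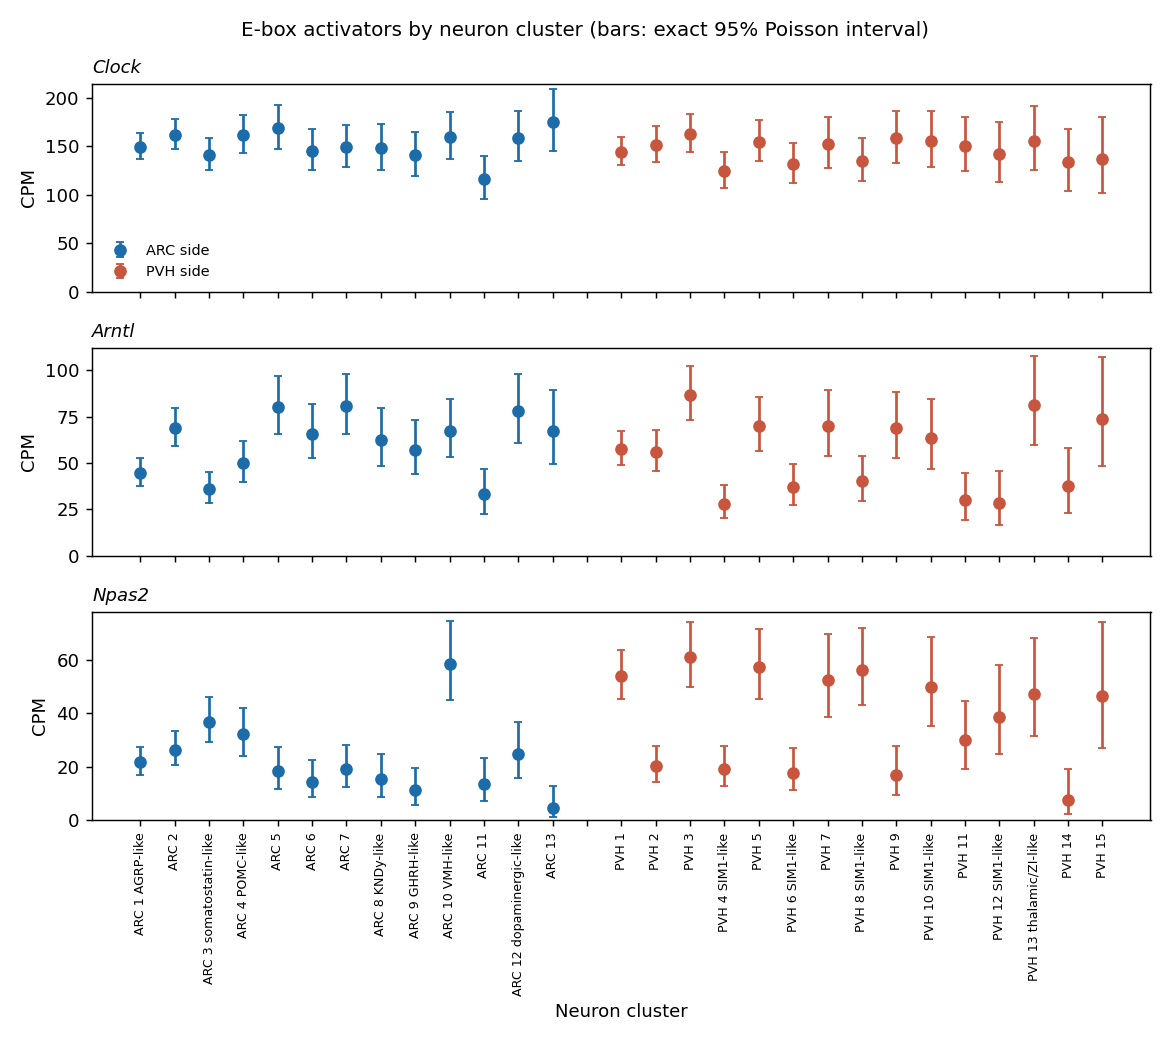
Level of Clock, Arntl and Npas2 in each neuron cluster of the ARC side (blue) and the PVH side (red), in CPM from 0; points are pooled levels and bars are exact 95% Poisson intervals. Clock stays between 116 and 175 CPM, Arntl between 28.2 and 86.8 CPM, and Npas2 between 4.30 and 61.3 CPM.

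Among the repressors, the period genes were sparse. Per1 encodes the period protein whose gene responds quickly to light and to neuronal activity in the suprachiasmatic nucleus. It was at 9.28 CPM (7.97 to 10.7) in ARC-hashtag and 8.07 CPM (6.76 to 9.55) in PVH-hashtag neurons, a ratio of 0.870 (0.691 to 1.09). Only 2 ARC clusters and 1 PVH cluster held enough UMIs for a call. The highest ARC cluster was cluster 2, at 13.2 CPM (9.24 to 18.3) and 1.53-fold (1.03 to 2.21) of the rest, and PVH cluster 1 was low, at 5.30 CPM (2.90 to 8.88) and a ratio of 0.617 (0.327 to 1.08). Both of these clusters are the ones that carried oligodendrocyte markers, and the part of those markers in the values was not tested. Immediate early genes, which report recent activity, lay on both sides of the level of Per1. Fos was at 3.35 and 4.48 CPM and Junb at 9.95 and 11.1 CPM on the ARC and PVH sides, while Nr4a1 was at 14.0 and 14.3 CPM. Egr1 was at 1.86 and 3.11 CPM, a ratio of PVH to ARC of 1.68 (1.07 to 2.64) from 36 and 52 UMIs, and Fosb and Arc each stayed under 1 CPM on both sides.

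Per2 (chr1:91415982-91459324), a core repressor, was at 13.5 CPM (11.9 to 15.2) and 14.5 CPM (12.8 to 16.5) on the ARC and PVH sides. Its ARC-hashtag levels ran from 4.58 CPM (1.68 to 9.98) in cluster 5 to 19.4 CPM (12.0 to 29.7) in the GHRH-like cluster 9, with a median of 14.7 CPM. POMC-like neurons had 4.86 CPM (2.10 to 9.58, from 8 UMIs) and AGRP-like neurons 17.3 CPM. The ratio of POMC-like neurons to the other ARC-hashtag neurons was 0.341 (0.146 to 0.683). Cluster 5 was as low, but had too few expected UMIs for a call. In PVH-hashtag neurons Per2 was at 9.63 CPM in the SIM1-like cluster 4, a ratio of 0.643 (0.346 to 1.10), and at 20.6 CPM in cluster 3.

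Cry1 (chr10:85131700-85185064), the stronger of the cryptochrome repressors, was also low in POMC-like neurons. It was at 16.8 CPM (15.0 to 18.7) and 17.4 CPM (15.4 to 19.5) on the ARC and PVH sides. POMC-like neurons had 9.72 CPM (5.56 to 15.8), a ratio of 0.557 (0.314 to 0.919), and cluster 7 had 8.70 CPM (4.34 to 15.6), a ratio of 0.501 (0.248 to 0.909). The KNDy-like cluster 8 and cluster 5, at 10.4 and 11.5 CPM, completed the low end of the order. The highest ARC level was 24.3 CPM (16.5 to 34.6) in cluster 6, and the highest PVH level was 32.2 CPM (19.4 to 50.2) in the thalamic or zona incerta-like cluster 13, from 19 UMIs. In POMC-like neurons Clock, by contrast, was at 162 CPM, 1 of the higher values of that side.

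Cry2 (chr2:92403646-92434043) was better counted than its paralogue, with 965 and 698 UMIs. On the ARC side it was highest in GHRH-like neurons, at 73.0 CPM (57.8 to 91.0), 1.51-fold (1.18 to 1.90) of the rest, and AGRP-like neurons had 62.6 CPM. It was lowest in cluster 5, marked by Dock5 and Tmem215, at 31.3 CPM (22.5 to 42.5), and in cluster 7, at 32.4 CPM (23.3 to 44.0), ratios of 0.613 and 0.637. Its PVH-hashtag levels ran from 24.6 CPM (11.2 to 46.7) in cluster 15 to 55.6 CPM (38.3 to 78.1) in the SIM1-like cluster 12, and cluster 14, at 26.3 CPM, was past the fold downwards. Per3 could be called in no cluster. Its gene model overlaps Camta1 on the same strand, so reads in the shared stretch cannot be assigned with certainty. The same limit holds for Clock, whose model overlaps Ube2n-ps1 and Gm43658 on the same strand, and for Npas2, whose model overlaps Gm3617.

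The REV-ERB genes differed in how far they could be followed. Nr1d2 (REV-ERB beta) was at 44.0 CPM (41.1 to 47.0) and 39.3 CPM (36.4 to 42.4) on the ARC and PVH sides, from 853 and 658 UMIs. Its variation over clusters was 7.30% after counting variance, against 3.63% for Clock. It was highest in AGRP-like neurons of the ARC side, at 53.4 CPM (45.7 to 62.0), and lowest in the dopaminergic-like cluster 12, at 28.8 CPM (19.0 to 41.9). The latter was the only cluster past the fold, with a ratio of 0.644 (0.422 to 0.944). On the PVH side the levels lay between 28.7 CPM in SIM1-like cluster 12 and 54.4 CPM in SIM1-like cluster 4. Nr1d1 (REV-ERB alpha) was far lower, at 4.38 CPM (3.50 to 5.42) and 3.47 CPM (2.63 to 4.48), and no cluster reached the UMI minimum. Its gene model overlaps Thra on the opposite strand, as those of Arntl, Npas2 and Cry2 overlap Gm45355, Gm20428 and D930015M05Rik, and the sources used here do not state whether the counting used strand.

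For the comparison of transmitter classes, a cluster was called glutamatergic when its summed UMIs of Slc17a6 exceeded those of Slc32a1, and otherwise GABAergic. This rule put mixed clusters in 1 class: ARC cluster 2, with 538 nuclei, had 46.9 CPM of Slc17a6 and 39.2 CPM of Slc32a1, and PVH cluster 3 had 57.1 and 46.7 CPM. Between the classes, 0 of the 10 clock genes were past the fold on the ARC side, where 9.13% of all measured genes were. Without the clusters that carried non-neuronal markers, a choice made after seeing the data, 2 of the 9 measured were past it there. These were Per2 and Cry1, with ratios of 1.66 and 1.57, and the share of all genes was not computed at that setting. With all clusters the largest differences between the classes of this side were in Npas2 and Per2. Npas2 was at 20.7 CPM in GABAergic and 29.4 CPM in glutamatergic clusters, a ratio of 0.705 (0.586 to 0.849). That ratio was past the fold without cluster 3, 7 or 8, at 0.583 to 0.660. The VMH-like cluster 10 held 64 of the 229 Npas2 UMIs of the glutamatergic class, and without it the difference was smaller. Per2 was at 15.1 and 11.04 CPM, a ratio of 1.36 (1.05 to 1.79). Arntl was at 53.7 and 65.7 CPM, a ratio of 0.817 (0.726 to 0.920). On the PVH side the corresponding ratio of Arntl was 1.24 (1.08 to 1.42), from 64.7 and 52.0 CPM, so the order of the classes was the opposite. Per2 was the 1 gene past the fold of the 8 measured on the PVH side, where 8.95% of all measured genes were. It was at 19.2 CPM (15.5 to 23.4) in GABAergic and 12.5 CPM (10.6 to 14.7) in glutamatergic clusters, a ratio of 1.53 (1.17 to 1.99), just past the fold. The ratio stayed above 1 in 17 of 17 other settings, from 1.36 to 1.82, and it was past the fold in 9 of the 16 with enough UMIs for a call. It lay between 1.45 and 1.71 when each neuron cluster of the side was left out in turn, and was under 1.5 without cluster 1, 4, 6, 11 or 14.

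Counted over clusters, 16 of 77 measured pairs of a clock gene and an ARC cluster were past 1.5-fold of the side's other neurons, 4 higher and 12 lower. This is 20.8%, against 11.7% of the pairs of all genes. In the PVH-hashtag clusters 16 of 83 pairs were past it, 2 higher and 14 lower, or 19.3% against 11.6%. The share of the clock genes was above that of all genes in 14 of 16 other settings on the ARC side and in 15 of 16 on the PVH side. These settings leave out thinning and means over nuclei, for which the share of all genes was not computed. After thinning, 4 of 20 ARC pairs and 0 of 13 PVH pairs were past the fold. With a hashtag quantile of 0.99 the share of the clock genes was 10.3% against 12.9% on the ARC side and 36.4% against 16.5% on the PVH side. With no count minimum it was below that of all genes on both sides, at 26.2% against 47.2% and 25.3% against 50.2%. Npas2 gave 6 of the pairs on each side, and Arntl 2 on the ARC side and 6 on the PVH side. Lower pairs outnumbered higher ones among all genes too, with 9365 lower and 4732 higher on the ARC side. When the clusters of a side were ordered by the level of any of the 10 genes, the intervals of neighbours in that order always overlapped, so that only clusters farther apart can be told from each other.

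**Figure D3:**
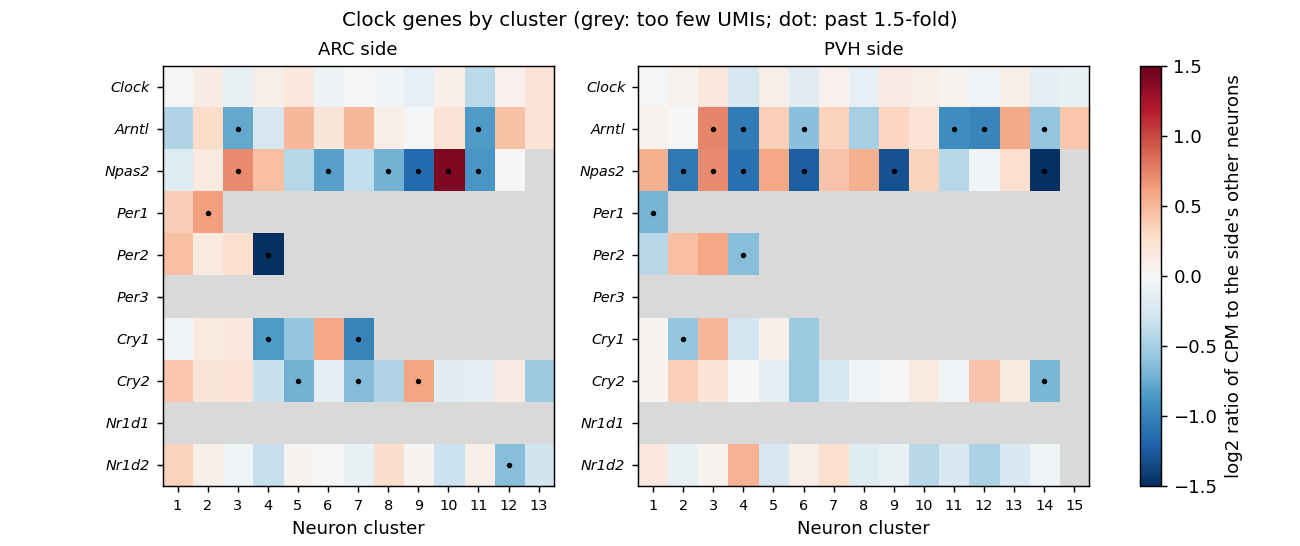
Ratio of each clock gene's CPM in a neuron cluster to that in the side's other neurons, as log2, for the ARC side (left) and the PVH side (right); red is higher, blue is lower, colours saturate at the ends of the bar, grey marks too few UMIs and dots mark ratios past 1.5-fold. Over both panels together the dots are most frequent in the rows of Npas2 and Arntl, while the row of Clock has none.

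The other parts of the clock were read from a list of 20 genes, the nuclear receptors, D-box factors, E-box repressors, kinases and ubiquitin ligase subunits around the loop. Of the 19 that were measured, 2 (10.5%) were past the fold between the hashtags, against the 11.3% of all genes. Rorb, which encodes a nuclear receptor that activates through ROR elements, was at 110 CPM on the ARC side and 169 CPM on the PVH side, a ratio of 1.54 (1.45 to 1.63), which was 1.21 (1.14 to 1.28) without PVH cluster 3. Within classes its ratio was below 1.5-fold, at 1.31 (1.18 to 1.46) in GABAergic and 1.32 (1.23 to 1.42) in glutamatergic clusters, and the latter was 4.37 without ARC cluster 2 and 0.978 without PVH cluster 3. Bhlhe40 (DEC1), a repressor at E-boxes, was at 11.7 and 7.77 CPM, a ratio of 0.664 (0.531 to 0.828), just past the fold. That call rested on single ARC clusters, since AGRP-like cluster 1 and GHRH-like cluster 9 were the highest, at 18.5 and 30.5 CPM. They held 60 and 33 of the 227 UMIs of that side. Within GABAergic clusters the ratio of Bhlhe40 was 0.345 (0.217 to 0.527), and within glutamatergic clusters it was 1.18 (0.852 to 1.66). In GABAergic clusters 3 of 18 measured genes of the list (16.7%, against 13.7% of all genes) were past the fold between the sides, Bhlhe40, Arntl2 at 0.601 (0.528 to 0.683) and Hlf at 0.660 (0.540 to 0.802). The call of Hlf was just past the fold and rested on single clusters. ARC cluster 6 was at 64.4 CPM and held 82 of the 467 UMIs of its class, and PVH cluster 9 was low. In glutamatergic clusters 1 of 19 genes of the list (5.26%, against 9.11%) was past the fold, Fbxl21 at 1.54 (1.16 to 2.07). That call was just past the fold and rested on single clusters. SIM1-like PVH cluster 8 was at 22.4 CPM and held 25 of the 165 UMIs of its class. VMH-like ARC cluster 10 was the lowest of its side, at 5.48 CPM. Rorb and Bhlhe40 were the 2 past the fold between transmitter classes of either side, 10.5% of the 19 measured on the ARC side and 11.1% of the 18 on the PVH side, against 9.13% and 8.95% of all genes. Rorb was lower in GABAergic clusters, with ratios of 0.590 (0.541 to 0.643) on the ARC side and 0.586 (0.534 to 0.643) on the PVH side. These ratios rested on single clusters. Without the mixed ARC cluster 2, which held most of the Rorb UMIs of its class, the ARC ratio turned to 1.95 (1.68 to 2.26), and without PVH cluster 3 the PVH ratio was 0.793 (0.718 to 0.875). Bhlhe40 was higher in GABAergic clusters of the ARC side, at 1.91-fold (1.41 to 2.61), and lower in those of the PVH side, with a ratio of 0.557 (0.345 to 0.868). The kinase genes Csnk1d and Csnk1e, which mark PER proteins for breakdown, were past the fold in none of these comparisons. Between SIM1-like clusters and the other PVH-hashtag neurons 1 of 18 measured genes of the list (5.56%, against 8.98% of all genes) was past the fold, Bhlhe40, with a ratio of 1.65 (1.15 to 2.37). Without SIM1-like cluster 8 that ratio was 1.23 (0.785 to 1.88), and the call was lost.

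Over the 28 neuron clusters of both sides, the levels of Clock and Arntl went together, with a Pearson r of 0.68 of log2(CPM + 1) (Spearman rho 0.64). The r was 0.69 over the 13 ARC clusters and 0.70 over the 15 PVH clusters. Among 6888 genes with at least 1000 UMIs, Arntl had the second highest r with Clock, after Gm26954 (0.71) and before Lrrc4c (0.60). The genes nearest to Arntl were Grik3 (0.74) and Eefsec (0.69), followed by Clock. Npas2 had an r of 0.11 with Clock, 0.03 over ARC and 0.43 over PVH clusters, and of 0.15 with Arntl, -0.10 and 0.48 on these sides. The genes nearest to Npas2 were Pard3b (0.68), Odf2l (0.64) and Car10 (0.63). Those nearest to Cry2 were Gclc (0.72), Pdlim5 (0.67) and Ranbp10 (0.66), and those nearest to Nr1d2 were Gtf2a1 (0.71), Copb1 (0.70) and Fam169a (0.70). The r of Clock and Arntl was not kept under every setting. It was 0.11 with the strictest hashtag threshold, which left 13 clusters, and 0.15 after thinning. The clusters share 1 library and differ in depth, and these r are descriptions without a test. Most of the spread of Clock over clusters was counting error, since its coefficient of variation fell from 8.97% to 3.63% after counting variance. The r of Clock with any gene, and the ranks drawn from it, carry that error. Of the 28 pairs among the 8 clock genes with at least 250 UMIs, only that of Clock and Arntl had an r over 0.5, and 21 were positive with a median of 0.11.

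Per2 was set beside the D-box factor genes, whose products bind D-boxes and are outputs of the loop. Its r over the 28 clusters was 0.76 with Tef and 0.74 with Hlf, but 0.36 with Dbp, and Tef was chosen for the plot after its values were seen. The 2 clusters with the lowest Per2, PVH clusters 11 and 14 at 3.76 CPM each from 3 and 2 UMIs, were also the lowest for Tef, at 30.1 and 33.8 CPM. PVH cluster 3 was the highest for both, with 20.6 CPM of Per2 and 120 CPM of Tef. The r of Per2 and Tef was 0.53 on the ARC side and 0.91 on the PVH side, with a Spearman rho of 0.59 over the 28 clusters. That of Per2 and Cry1 was 0.85 on the ARC side but 0.12 on the PVH side. Several of these genes were lower in clusters of higher depth. The r to the median UMIs per nucleus was -0.41 for Per2, -0.72 for Tef, -0.53 for Hlf, -0.43 for Arntl and -0.46 for Nr1d2, and the part of depth in their levels and in the other r was not tested.

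**Figure D4:**
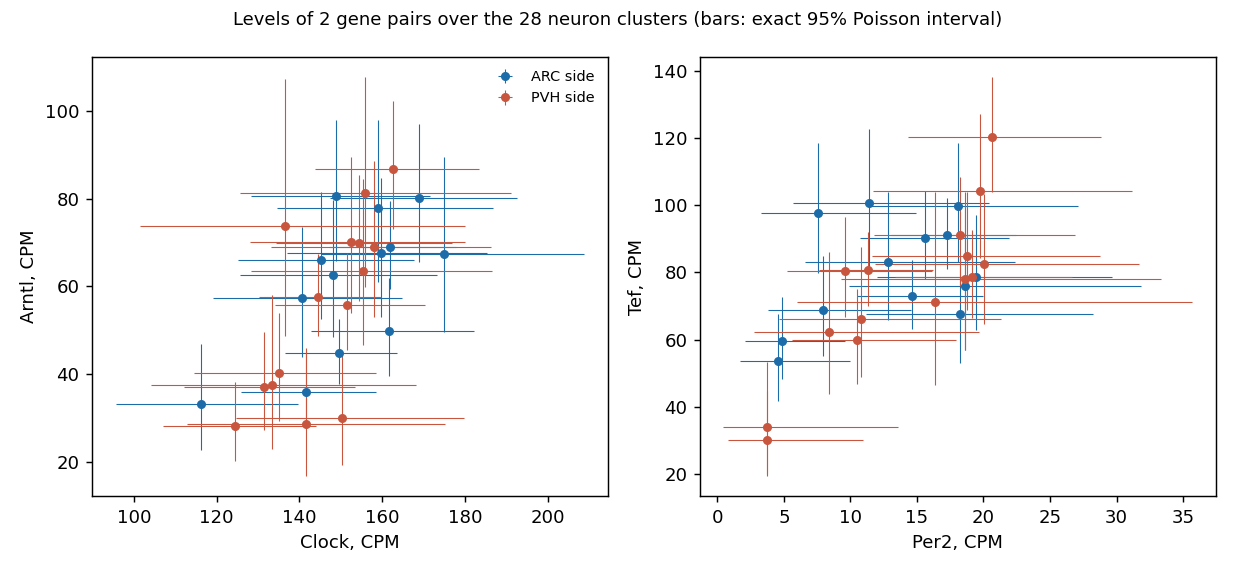
Level of Arntl against Clock (left) and of Tef against Per2 (right) in the 28 neuron clusters, in CPM; each point is a cluster of the ARC side (blue) or PVH side (red) and bars are exact 95% Poisson intervals. Clusters with less Clock tend to have less Arntl, and the clusters lowest in Per2 are lowest in Tef, with wide bars for Per2.

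In individual nuclei the clock genes were seen sparsely. A median of 1 of the 10 genes had a UMI in a nucleus of either side, and 17.8% of ARC-hashtag and 17.4% of PVH-hashtag neurons had none. A UMI of Clock was found in 53.0% (51.4 to 54.6) of ARC-hashtag neurons and of Npas2 in 10.1% on the ARC and 16.2% on the PVH side. After thinning to 1000 UMIs the Clock share was 13.7% and the Npas2 shares were 2.54% and 3.84%. No cell type of these data is known to lack the clock, so that a background share from free RNA could not be set. Among thinned PVH-hashtag nuclei with a UMI of Npas2, 23.7% (16.4 to 32.4) also had 1 of Clock, against 13.9% (12.7 to 15.2) of those without. On the ARC side the shares were 16.8% (9.94 to 25.9) and 13.6% (12.5 to 14.7), which overlap. Arntl was seen in 5.87% of ARC-hashtag nuclei with a UMI of Clock against 5.39% of those without, and in 6.14% against 5.20% on the PVH side. With a UMI of Npas2 the Arntl shares were 5.26% against 5.46% on the ARC side and 7.63% against 5.25% on the PVH side, and the intervals of each of these pairs overlapped. Of these 6 pairs of shares, only that of Npas2 and Clock on the PVH side did not overlap. The shares pool all clusters of a side, and PVH cluster 3 was the highest of its side in both Npas2 and Clock. The part of clusters in the shares was not tested.

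In the 30 non-neuronal nuclei of the ARC side, which carried astrocyte and tanycyte markers, Npas2 was at 91.1 CPM (39.3 to 179) from 8 UMIs and Cry1 at 56.9 CPM (18.5 to 133) from 5 UMIs. The corresponding neuronal levels were 24.2 and 16.8 CPM, and the ratios to neurons were 3.76 (1.61 to 7.47) and 3.39 (1.09 to 7.99). These nuclei were too few for a call on any of the 10 genes.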

How the data were processed

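Nuclei from micro-dissected hypothalamic tissue were sorted for NeuN and sequenced as 1 pooled gene expression library with 1 hashtag library. The deposited matrix holds raw UMI counts per gene and barcode, which the authors made with Cell Ranger. The submitters' processing notes name Cell Ranger 5.0, Seurat 4 and mm10, while the matrix header names 4.0.0. The sources used here do not state whether intronic reads were counted.

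From the 11409 barcodes, those with 800 to 5000 genes, at most 12000 UMIs and at most 1% mitochondrial counts were kept (10170), with 23143 genes seen in at least 3 nuclei. Hashtags were called at a positive quantile of 0.8, which left 6841 nuclei with 1 hashtag and removed 944 hashtag doublets and 2385 nuclei with no hashtag. No other doublet caller was run, so doublets within a hashtag remain. Each side was scaled to 10000 counts, and clustered on 2000 variable genes without the clock genes, 30 principal components, 20 neighbours and a resolution of 0.55 (R 4.3.3, Seurat 5.3.0, leidenbase 0.1.32). Clusters were classed as glutamatergic or GABAergic by whether Slc17a6 or Slc32a1 had more UMIs. A cluster was named when the first marker and at least 3 markers of exactly 1 list were at 1.5-fold or more with at least 3 UMIs each, unless its 10 leading genes held more markers of another list.

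Counts were summed per cluster, class or side and divided by all UMIs to give CPM, with exact Poisson intervals. Ratios of CPM and shares have exact binomial intervals (Python 3.11.15, numpy 2.4.6, scipy 1.17.1, pandas 2.3.3, matplotlib 3.10.9). For thinned values, 1000 UMIs were drawn from each nucleus, and 5 shallower nuclei were left out. Each hashtag is 1 pool of animals that cannot be separated, so no test between groups was run. The calling step and the intervals were tested on simulated data. That simulation used whole sides, Poisson counting error alone and changes larger than the fold used for calls. It does not bear on calls near the fold or in small clusters.

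The text names all 10 clock genes, those of 20 other clock genes past 1.5-fold between sides or transmitter classes (and 1 past it in SIM1-like clusters, named after its value was seen), those past it between sides within a class, named after their values were seen, immediate early genes beside Per1, and the 3 genes most like each clock gene with at least 1000 UMIs. Members of the D-box family are named beside Per2, and the kinase genes as examples, after their values were seen. The members, lists and thresholds were chosen with earlier results of these data known. Alternatives changed the hashtag threshold, the filters, depth, scaling, clustering and UMI minimum. Leaving out single neuron clusters was added after seeing the data.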

Additional observations from a re-analysis of the deposited data

Results flagged for a closer look

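Clock gene RNA was also found in nuclei that no comparison used. The 2385 nuclei with no hashtag held 3457 UMIs of the 10 genes, a summed level of 377 CPM (364 to 389), where 3 counts would be 0.327 CPM. Their median depth was 3926 UMIs. The 944 hashtag doublets held 1907 UMIs, a summed level of 364 CPM (347 to 380), where 3 counts would be 0.572 CPM, and their median depth was 5216 UMIs. These levels lie beside the 375 and 369 CPM of the ARC-hashtag and PVH-hashtag neurons.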

How the results depend on the processing

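No paired analysis was possible because each hashtag was 1 pooled sample. With a positive quantile of 0.99, 0 clock genes were past the fold between hashtags, against 1 in the other 17 settings. The 16 of 77 cluster pairs of the ARC side became 4 of 39 at that quantile, 4 of 20 after thinning to 1000 UMIs, 34 of 130 with no count minimum and 6 of 46 with at least 50 expected UMIs. The 16 of 83 pairs of the PVH side became 4 of 11 at a quantile of 0.99, 9 of 37 at 0.95, 0 of 13 after thinning, 9 of 64 at a resolution of 0.3, 38 of 150 with no minimum and 6 of 40 with at least 50 expected UMIs. The shares of all genes at these settings were 12.9% at a quantile of 0.99, 47.2% with no minimum and 9.5% with 50 expected UMIs on the ARC side, against 10.3%, 26.2% and 13% of the clock genes. In the same order they were 16.5%, 50.2% and 9.09% on the PVH side, against 36.4%, 25.3% and 15.0%, with 11.7% against 24.3% at 0.95 and 11.4% against 14.1% at a resolution of 0.3. They were not computed after thinning or for means over nuclei. The minimum and thinning change how many pairs can be called at all. The shares of all genes past the fold between hashtags or transmitter classes were not computed at the other settings. Between transmitter classes of the ARC side, 0 of 10 genes became 1 of 8 at a quantile of 0.99. It became 1 of 10 at a resolution of 0.3 and with 50 components. At a resolution of 1.2, and without the clusters that carried non-neuronal markers, it was 2 of 9. On the PVH side, 1 of 8 genes became 3 of 8 at a quantile of 0.95. It became 0 with mitochondrial counts at most 0.5% or 5%, after thinning, at a resolution of 0.3, with the clock genes kept among the variable genes, with 20 or 50 components, and without the clusters that carried non-neuronal markers. The ratio of Per2 there was 1.49, 1.36, 1.82 (too few UMIs to call), 1.45, 1.497, 1.48, 1.49 and 1.49 in that order. At a quantile of 0.99 the PVH side gave no split by transmitter. The r of Clock and Arntl was 0.11 over 13 clusters at a quantile of 0.99 and 0.50 over 21 at 0.95. It was 0.15 over 28 after thinning and 0.56 over 38 at a resolution of 1.2. Leaving out the clusters with non-neuronal markers was chosen after seeing the data. The cause of these changes was not tested beyond the number of pairs that could be called. Per3 and Nr1d1 were too sparse for any cluster, and depth limits calls on Per1, Per2 and Cry1 to the larger clusters.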
